A study of Mus musculus with 3 samples.

Results

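The genes described here are 10 genes that mammals use mainly in the testis and in germ cells: the testis alpha-tubulins Tuba3a and Tuba3b, the testis-expressed genes Tex19.1, Tex101, Tex11 and Tex15, and the germ-cell identity genes Taf7l, Dazl, Ddx4 and Stk31. Their probes were found through the RefSeq accession that the scanner files give each probe, which yielded 13 probes for all 10 genes among 39404 probes and 20010 named genes. The genes were picked with results of these arrays already known, partly for their high signal after Dnmt1 depletion, so their differences in that comparison are a description and carry no test.

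RNA of primary mouse embryonic fibroblasts was hybridised to 3 Agilent 1-colour (Cy3) expression arrays, 1 per group. No difference therefore has a replicate culture behind it, and precision is limited by having 3 arrays. The groups were cells with a vector expressing an shRNA against DNMT1 (Rb-/-;ATM-/-;DNMT1-depleted), cells with a vector expressing ATM (Rb-/-;ATM-/-;ATM-reconstituted) and cells with an empty vector (Rb-/-;ATM-/-). All 3 groups therefore lacked Rb and ATM at the start, came from an embryo of day 10.0 on the C57BL/6J background, spent 3 days in puromycin (4 ug/ml) and were harvested after a further 4 days. The labels name a transfection with each vector. Whether a culture was a clone is not read from them, and whether the cultures were pooled from several embryos was not stated in them.

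In somatic cells many germline genes have CpG-rich or CpG-intermediate promoters that are methylated early in development, and DNMT1 copies that methylation to the new strand at each cell division. Losing DNMT1 in dividing fibroblasts is known to dilute the methylation and to let some of these genes be transcribed outside the germline. The genes differ in what they do: the tubulins build microtubules, the Tex genes act in transposon control, meiosis and sperm function, and the identity genes encode RNA-binding, helicase, kinase-like and transcription-factor proteins.

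The share of probes well above background, the scanner software's mark for a measurable signal, was 59.6% on the Dnmt1 shRNA array, 55.0% on the array labelled ATM vector and 55.1% on the empty-vector array, and the lowest such signals were 25.1, 32.7 and 37.8 intensity units. Dnmt1, the targeted gene, reached a processed signal of 956 in Dnmt1 shRNA cells, 3169 in cells labelled ATM vector and 4908 in empty-vector cells, and after scaling was 4.58-fold lower in Dnmt1 shRNA than in empty-vector cells. Of the 2 Atm probes, 1 was dim on all 3 arrays and the other gave 366, 409 and 430 on the Dnmt1 shRNA, ATM vector and empty-vector arrays. Where these probes lie relative to the deleted part or the vector is not known, so they check neither, and that array is called by its label. Of 14 fibroblast markers, 14, 13 and 13 were well above background on the 3 arrays in the same order, including Col1a1, Col1a2 and Vim on all 3. The Dnmt1 shRNA and empty-vector arrays shared a slide and a scan, whereas the third array had a slide and scan of its own, so slide and group cannot be told apart for ATM vector.

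Promoter sequences, credited to RefSeq on GRCm38.p6, were matched by symbol for 8 of the 10 genes, with 9 start sites. Each window runs from 250 bases before to 50 bases after a start. The 7 windows printed here belong to the 4 members with the highest ratios after Dnmt1 depletion, by bound or as measured (Tuba3a, Tuba3b, Tex19.1, Tex101), to Taf7l, which was measured on all 3 arrays, and to Dazl and Ddx4, which were dim on all 3. They lie at chr6:125286032-125286331, minus strand (Tuba3a), chr6:145615713-145616012, plus strand (Tuba3b), chr11:121145893-121146192, plus strand (Tex19.1), chr7:24672001-24672300, minus strand (Tex101), chrX:134476441-134476740, minus strand (Taf7l), chr17:50293571-50293870, minus strand (Dazl) and chr13:112652261-112652560, minus strand (Ddx4). Capitals mark CpG dinucleotides, the kind of site at which DNMT1 copies methylation. Whether these windows were methylated was not measured.
Tuba3a: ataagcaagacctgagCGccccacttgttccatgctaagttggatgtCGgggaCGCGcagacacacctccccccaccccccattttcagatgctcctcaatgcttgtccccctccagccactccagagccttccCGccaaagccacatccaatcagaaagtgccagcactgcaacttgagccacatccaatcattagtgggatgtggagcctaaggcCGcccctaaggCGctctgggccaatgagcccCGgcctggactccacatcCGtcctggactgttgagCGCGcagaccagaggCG
Tuba3b: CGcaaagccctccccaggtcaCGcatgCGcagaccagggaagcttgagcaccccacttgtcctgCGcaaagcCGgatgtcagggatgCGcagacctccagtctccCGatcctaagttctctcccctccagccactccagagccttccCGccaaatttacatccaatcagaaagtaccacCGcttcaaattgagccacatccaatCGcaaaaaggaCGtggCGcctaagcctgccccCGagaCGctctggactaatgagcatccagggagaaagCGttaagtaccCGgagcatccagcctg
Tex19.1: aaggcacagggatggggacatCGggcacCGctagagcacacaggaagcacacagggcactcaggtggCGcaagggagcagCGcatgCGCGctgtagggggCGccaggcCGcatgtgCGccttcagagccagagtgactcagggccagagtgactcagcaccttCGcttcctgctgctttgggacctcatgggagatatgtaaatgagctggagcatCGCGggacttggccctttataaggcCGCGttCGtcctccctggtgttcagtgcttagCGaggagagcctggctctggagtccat
Tex101: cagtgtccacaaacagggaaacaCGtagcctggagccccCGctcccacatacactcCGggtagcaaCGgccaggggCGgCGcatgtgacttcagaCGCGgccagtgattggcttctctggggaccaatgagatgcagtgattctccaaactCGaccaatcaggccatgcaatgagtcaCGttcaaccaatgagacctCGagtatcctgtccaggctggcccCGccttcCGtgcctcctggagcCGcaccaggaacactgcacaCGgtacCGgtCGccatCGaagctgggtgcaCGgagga
Taf7l: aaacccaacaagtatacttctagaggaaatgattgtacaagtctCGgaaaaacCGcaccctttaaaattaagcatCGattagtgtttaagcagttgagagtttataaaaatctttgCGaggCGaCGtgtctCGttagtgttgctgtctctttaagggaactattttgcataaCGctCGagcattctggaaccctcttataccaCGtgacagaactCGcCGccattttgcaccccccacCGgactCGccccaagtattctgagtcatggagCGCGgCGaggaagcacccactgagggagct
Dazl: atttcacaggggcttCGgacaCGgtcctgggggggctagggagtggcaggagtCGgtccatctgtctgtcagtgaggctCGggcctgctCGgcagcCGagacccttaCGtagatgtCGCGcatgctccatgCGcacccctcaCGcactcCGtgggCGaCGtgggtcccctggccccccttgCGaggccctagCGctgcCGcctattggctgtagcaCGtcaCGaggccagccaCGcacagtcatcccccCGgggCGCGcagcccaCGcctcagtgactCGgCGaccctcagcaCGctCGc
Ddx4: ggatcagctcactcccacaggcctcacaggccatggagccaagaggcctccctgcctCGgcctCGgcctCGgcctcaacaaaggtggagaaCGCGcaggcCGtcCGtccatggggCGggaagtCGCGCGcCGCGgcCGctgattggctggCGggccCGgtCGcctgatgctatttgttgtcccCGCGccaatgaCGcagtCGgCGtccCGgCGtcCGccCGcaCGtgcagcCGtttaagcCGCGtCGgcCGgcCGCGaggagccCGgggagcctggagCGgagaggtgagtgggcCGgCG

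Tuba3a and Tuba3b both encode alpha-tubulin, the subunit that pairs with beta-tubulin in microtubules, and both lie on chromosome 6. The first Tuba3a probe read 5481 intensity units on the Dnmt1 shRNA array, 7.78 on the array labelled ATM vector and 7.74 on the empty-vector array. The second gave 5254, 19.3 and 16.5 on the same arrays. Both probes were well above background on the Dnmt1 shRNA array alone, with a software error of 548 and 525 intensity units there. Because the other side is dim, the ratio is a lower bound, for which the dim side is raised to its array's lowest measurable signal: Tuba3a was at least 163-fold higher by the first probe and at least 156-fold higher by the second, in Dnmt1 shRNA over empty vector. These bounds hold for the reported scaling: with normexp background correction (offset 50 units, added to every signal) the log2 ratio of Tuba3a was 6.13, against 7.32 for the bound over both probes. In these bulk cultures more cells with the transcript and more transcript per cell cannot be told apart.

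Tuba3b was the only member of the 10 that was measured on both of those arrays and lay more than 2-fold apart between them. Its probe had a signal of 9198 (software error 919.8) on the Dnmt1 shRNA array, 108 (13.4) on the array labelled ATM vector and 91.4 (12.0) on the empty-vector array. The level was thus high on 1 array and low but measurable on the other 2. It was 113-fold higher in Dnmt1 shRNA over empty vector, a log2 ratio of 6.82 with an error of 0.24 from the software's spot errors, which cover the spots and not the cultures. With normexp the log2 ratio was 5.88. In the array labelled ATM vector over empty vector the log2 ratio was 0.38, with an error of 0.26. Probe sequences were not used here, so signal of either tubulin may include cross-hybridisation from the other.

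**Figure D1:**
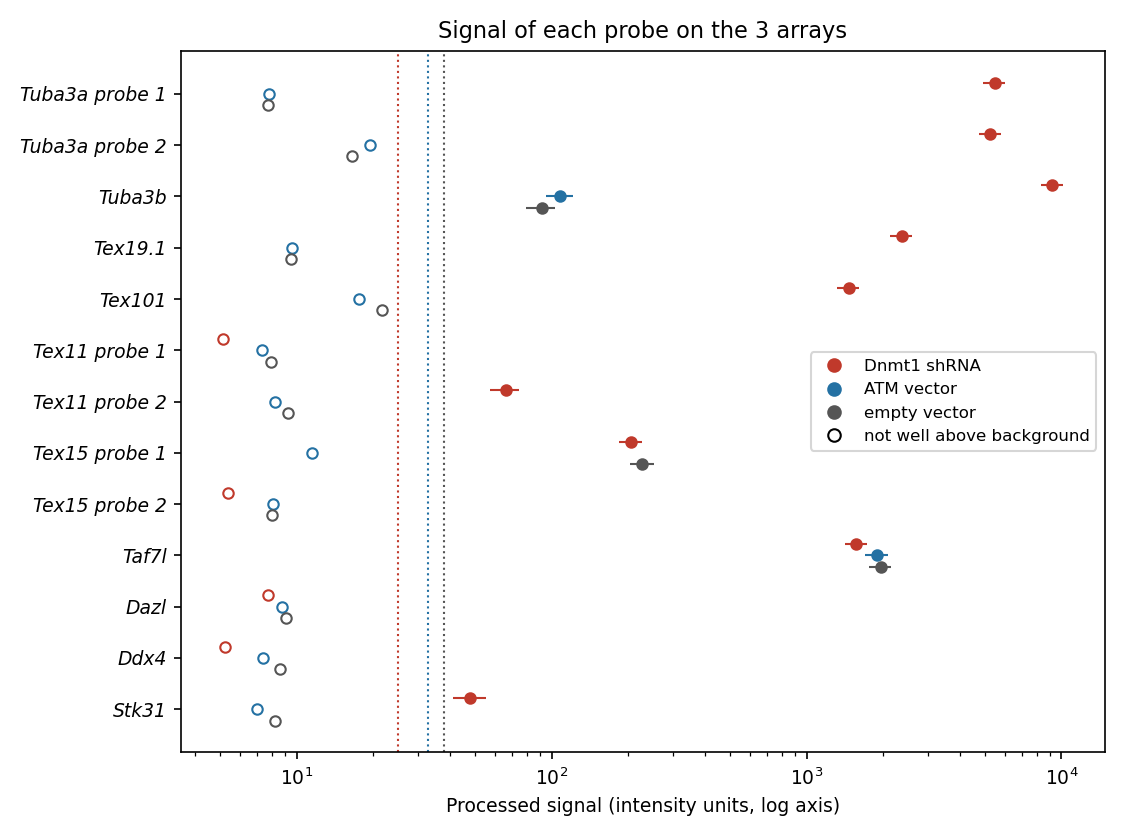
Processed signal (intensity units, log axis) of the 13 probes of the 10 genes on the Dnmt1 shRNA, ATM vector and empty-vector arrays; bars are the software's spot error, open points are not well above background, and dotted lines are the lowest signal well above background of each array. The Tuba3a, Tuba3b, Tex19.1 and Tex101 probes read 1463 to 9198 units on the Dnmt1 shRNA array and at most 108 on the other arrays.

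Of 18 other tubulin genes, 17 could be tested in Dnmt1 shRNA over empty vector. None of them was 2-fold different in either direction, and their log2 ratios had a median of -0.16, against -0.01 over all 13785 genes tested. Among all those genes 7.86% were higher and 1.83% lower. Tuba1a, Tuba1b and Tuba1c, the main fibroblast alpha-tubulins, stood at -0.14, -0.13 and -0.21. Tuba8, a tissue-restricted alpha-tubulin, stood at -0.80, the lowest of the list. In the array labelled ATM vector over empty vector the list had a median of -0.34 against 0.02 over all genes, with 1 gene at least 2-fold higher and 4 lower (2 lower with dim signals at their bound). Among all genes tested 8.68% were higher and 8.08% lower in that comparison (7.42% and 6.67% by bound). Tubb3, the beta-tubulin of neurons, was 2.94-fold higher there, Tubb2a was 2.53-fold and Tubb2b 2.58-fold lower, and Tuba8 and Tubb1 were dim with bounds of only 1.84-fold and 1.37-fold lower.

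**Figure D2:**
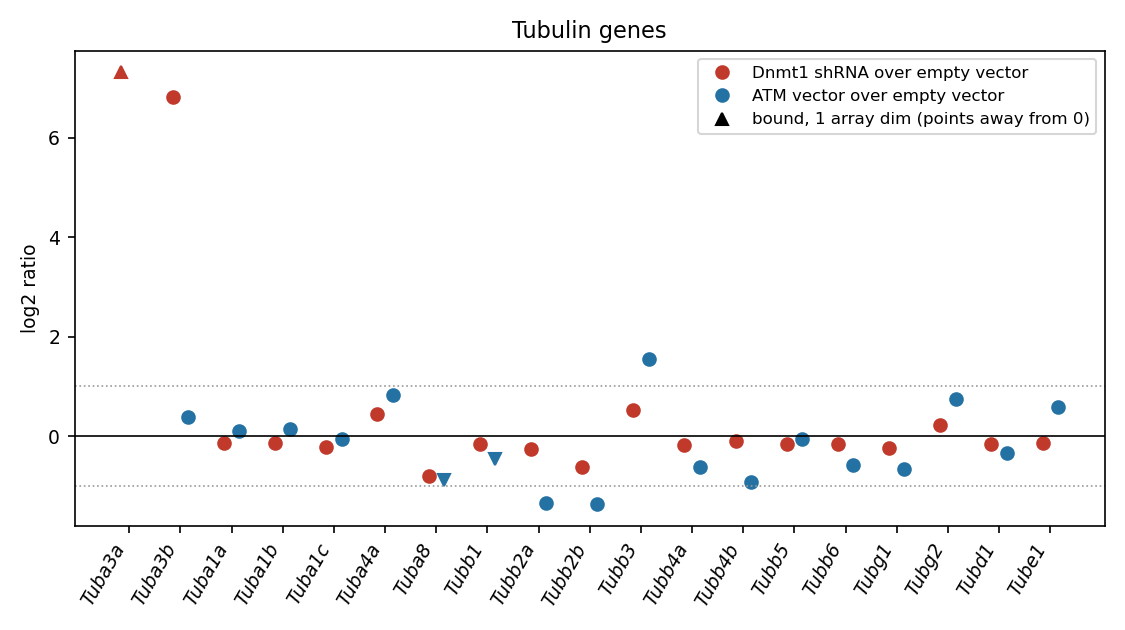
log2 ratio of the 2 testis tubulins and of 17 other tubulins for Dnmt1 shRNA over empty vector and ATM vector over empty vector; triangles are bounds where 1 array was dim, dotted lines mark 2-fold. Tuba3a (bound) and Tuba3b lie at 7.32 and 6.82 in the first comparison, while the other tubulins lie between -0.80 and 0.53.

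Of the 4 Tex genes, Tex19.1 and Tex101 had high signal after Dnmt1 depletion, Tex11 a low one, and Tex15 did not differ by 2-fold. Tex19.1, a mammalian germ-cell and placenta protein that restrains retrotransposons, had a signal of 2361 on the Dnmt1 shRNA array, 9.55 on the array labelled ATM vector and 9.54 on the empty-vector array. Only the first is a measurable level, and the ratio of Dnmt1 shRNA over empty vector was at least 70.1-fold, or 6.13 on the log2 scale, against 4.70 with normexp. Its paralog and neighbour Tex19.2 was measured on all 3 arrays, at 142, 60.8 and 71.0 units, and was 2.24-fold higher in Dnmt1 shRNA and 1.06-fold lower in the array labelled ATM vector, each over empty vector. Ubr2, the ubiquitin ligase that binds Tex19.1, had log2 ratios of 0.21 and 1.01 in the same comparisons. Probe sequences were not used, so cross-hybridisation between Tex19.1 and Tex19.2 was not tested.

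Tex101, a glycoprotein anchored to the surface of male germ cells, gave 1463 units on the Dnmt1 shRNA array, 17.5 on the array labelled ATM vector and 21.5 on the empty-vector array. It was measurable on the first alone, and at least 43.4-fold higher than in the empty-vector cells, or 5.44 on the log2 scale, against 4.16 with normexp. Of the proteins that act with Tex101 in the sperm membrane, Ly6k was at 38.3, 19.18 and 29.5 units in the same order, a difference of at least 1.14-fold between Dnmt1 shRNA and empty vector, and Adam3 was dim on all 3 arrays. Ace, the peptidase that releases Tex101 from the membrane, was 1.45-fold higher in Dnmt1 shRNA over empty vector.

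Tex11, an X-linked gene for meiotic recombination, has 2 probes that disagree. The second gave 65.9 units (software error 8.62) on the Dnmt1 shRNA array, 8.25 on the array labelled ATM vector and 9.24 on the empty-vector array. The first gave 5.15, 7.33 and 7.91 units and was dim on all 3. By the second probe the bound is 1.96-fold for Dnmt1 shRNA over empty vector, just under 2-fold, although the signals as measured give 8.0-fold. The gene is therefore detected by 1 of 2 probes, at a level near the limit of detection.

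Tex15, a large protein for meiotic double-strand break repair and for transposon silencing in male germ cells, did not follow the others. Its first probe gave 205 units (software error 21.2) on the Dnmt1 shRNA array, 11.5 on the array labelled ATM vector and 227 (24.2) on the empty-vector array, and its second was dim on all 3. The first probe was thus measurable without Dnmt1 depletion, its log2 ratio for Dnmt1 shRNA over empty vector was 0.02 with an error of 0.21, and it was dim on the array labelled ATM vector. There it was at least 6.32-fold lower than on the empty-vector array and at least 6.41-fold lower than on the Dnmt1 shRNA array, log2 bounds of -2.66 and -2.68, against -1.72 and -1.85 with normexp. The part of the separate slide in this difference was not tested.

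Among 29 other genes whose symbol is Tex and a number, 13 were well above background on the Dnmt1 shRNA array, 10 on the array labelled ATM vector and 11 on the empty-vector array. Over all named genes the shares detected were 68.1%, 63.3% and 63.7%. Of the 14 tested in Dnmt1 shRNA over empty vector, 3 exceeded 2-fold upward and 1 downward, and the middle of their log2 ratios was 0.00. Among all genes tested 7.86% were higher and 1.83% lower (4.94% and 1.49% by bound). With dim signals at their bound only Tex19.2 of the 14 was higher, while Tex47 was at least 3.44-fold lower. Tex12, a synaptonemal complex protein, and Tex14, a component of germ-cell bridges, were measurable on the Dnmt1 shRNA array alone, at 53.8 and 33.1 units; the bound was 1.60-fold for Tex12, and Tex14 lay so near the limit that its bound shows no difference. In the array labelled ATM vector over empty vector 0 of 11 were higher and 1 lower, Tex47 at least 2.69-fold, with a median of 0.15. Among all genes 8.68% were higher and 8.08% lower there (7.42% and 6.67% by bound).

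Of the germ-cell identity genes, Taf7l had measurable signal in every culture. Taf7l is an X-linked germ-cell relative of the TFIID subunit Taf7, and its probe gave 1568 (software error 157) on the Dnmt1 shRNA array, 1892 (189) on the array labelled ATM vector and 1955 (196) on the empty-vector array. The 3 levels lay close together: the log2 ratio was -0.15 for Dnmt1 shRNA over empty vector and 0.09 for ATM vector over empty vector, both with an error of 0.20. Taf7 had log2 ratios of 0.24 and -0.51 in these comparisons, over 2 probes. Of 17 TFIID and TBP-related genes on the array 15 were tested in each comparison and 0 were 2-fold different, with medians of -0.10 for Dnmt1 shRNA over empty vector and 0.06 for ATM vector over empty vector. Among all genes tested 7.86% and 8.68% were higher in these 2 comparisons, and 1.83% and 8.08% lower. The germline forms Taf4b and Tbpl2 were dim on all 3 arrays.

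Dazl and Ddx4, the RNA-binding protein and the DEAD-box helicase that most firmly mark germ cells, were not detectable on any array. Dazl gave 7.71 units on the Dnmt1 shRNA array, 8.74 on the array labelled ATM vector and 9.04 on the empty-vector array. Ddx4 gave 5.25, 7.40 and 8.62 units. After subtraction of the background, Dazl stood at 7.39, -3.55 and -5.05 and Ddx4 at -2.44, -16.1 and 3.88, while the 95th percentile of 153 negative control spots was 9.60, 7.52 and 6.37 on the 3 arrays in the same order. Both genes were thus below that percentile on every array, and no fold is given. Each has 1 probe, so a transcript that this probe does not cover would be missed. Boll, another member of the Dazl family, was dim on the Dnmt1 shRNA and empty-vector arrays (13.5 and 8.28 units) but measurable, at 72.3 units, on the array labelled ATM vector, at least 2.11-fold higher than on the empty-vector array.

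Stk31, a kinase-like protein with a tudor domain in germ cells, gave 48.0 units (software error 7.0) on the Dnmt1 shRNA array, 7.0 on the array labelled ATM vector and 8.24 on the empty-vector array. It was measurable on the first array alone, but close to the limit: the bound over empty vector was 1.43-fold, and the signals as measured give 6.54-fold.

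Counted together, 8 of the 10 genes were well above background on the Dnmt1 shRNA array, 2 on the array labelled ATM vector and 3 on the empty-vector array. For all named genes the shares were 68.1%, 63.3% and 63.7%. Tuba3a, Tex19.1, Tex101, Tex11 and Stk31 were detected on the Dnmt1 shRNA array alone, as were 3.85% of all named genes. Tex15 was detected on the Dnmt1 shRNA and empty-vector arrays, Tuba3b and Taf7l on all 3, and Dazl and Ddx4 on none.

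In Dnmt1 shRNA over empty vector 8 genes could be tested: 6 were at least 2-fold higher by the signals as measured and 4 with dim signals at their bound, against 7.86% and 4.94% of all genes tested. No member was 2-fold lower, against 1.83% of all genes (1.49% by bound). The 8 log2 ratios had a median of 4.63 as measured and 3.20 when bounds were used. Tuba3a, Tuba3b, Tex19.1 and Tex101 ranked 1, 2, 6 and 11 among 13785 genes by bound, and 1, 6, 2 and 15 by the signals as measured, and 0.109% of those genes exceeded 30-fold by bound. These genes were chosen from that contrast, so the counts describe the choice and nothing is read from them. Just inside 2-fold there was no member by bound, the nearest being Tex101 at 43.4-fold, and just outside lay Tex11 at 1.96-fold and Stk31 at 1.43-fold.

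**Figure D3:**
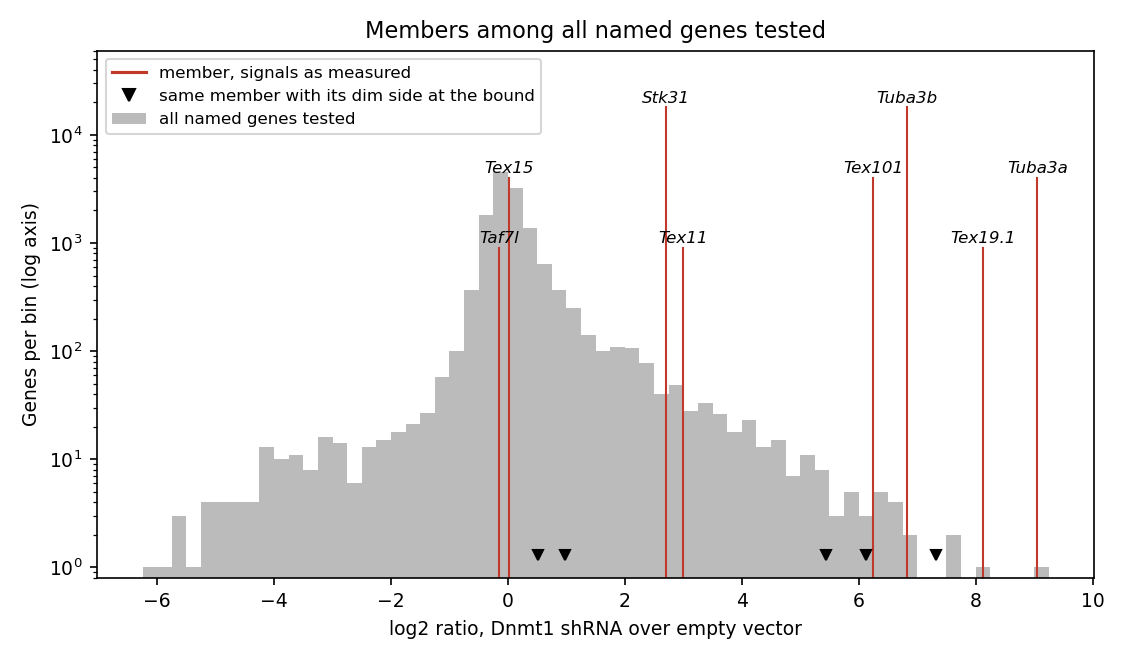
Histogram (log count axis) of the log2 ratio of Dnmt1 shRNA over empty vector for the 13785 named genes tested, with the 8 tested members as red lines and, where 1 array was dim, their bound as a black triangle. Tuba3a, Tuba3b, Tex19.1 and Tex101 lie at the far right, and Taf7l and Tex15 at the centre.

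For ATM vector over empty vector 3 of the 10 genes could be tested. None was 2-fold higher, against 8.68% of all genes (7.42% by bound), and 1, Tex15, was 2-fold lower, against 8.08% (6.67% by bound). The other 7 were dim on both arrays. In ATM vector over Dnmt1 shRNA 8 were tested, 0 were higher against 7.32% (7.01% by bound), and 7 were lower against 12.6% (6 with bounds against 9.65%). Tuba3a was at least 167-fold, Tuba3b 86.7-fold, Tex19.1 at least 73.7-fold and Tex101 at least 45.7-fold lower in that comparison, and Taf7l had a log2 ratio of 0.24. With normexp the log2 ratios of Tuba3a, Tuba3b, Tex19.1 and Tex101 in that comparison were -6.13, -5.73, -4.82 and -4.04. The comparisons share arrays, so these values are not separate evidence.

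What the promoters of these genes hold was not used to choose them. The 4 genes with the highest ratios had 12 (Tuba3a), 16 (Tuba3b), 16 (Tex19.1) and 19 (Tex101) CpGs in the 300-base window, with observed over expected ratios of 0.47, 0.68, 0.58 and 0.70. Taf7l, measured in every culture, had 17 CpGs with a ratio of 1.03. Dazl and Ddx4, dim on all arrays, had 28 and 38, with ratios of 0.80 and 0.98, and Stk31, near the limit of detection, had 29 and 28 at its 2 starts. Over all 32851 promoters the median was 7 CpGs and the quartiles were 3 and 20, and every matched member lay above that median. Dazl, Ddx4 and Stk31 lay above the upper quartile, and of these Stk31 was detected on the Dnmt1 shRNA array. These promoters belong to 27025 genes, more than have a named probe here. Of other array genes with a matched promoter, 5746 had 0 to 9 CpGs and 3455 had 10 to 19. A further 3722 had 20 to 29 and 2952 had 30 or more. The middle of these array genes thus lies in the class of 10 to 19, as do Tuba3a, Tuba3b, Tex19.1, Tex101 and Taf7l. Which of these members lie above it was not tested.

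For context, genes other than the 10 were grouped by promoter CpG number, in classes chosen after these values were seen. Of tested genes with 0 to 9 CpGs 11.7% were at least 2-fold higher by bound in Dnmt1 shRNA over empty vector. The share was 3.93% of those with 10 to 19, 2.14% with 20 to 29 and 1.73% with 30 or more. The genes tested were 2216 of 5746, 2776 of 3455, 3318 of 3722 and 2664 of 2952 in the same order. The classes thus differ in which genes entered, and no trend is read from these shares. Of genes dim on the empty-vector array, the shares well above background on the Dnmt1 shRNA array were 11.8%, 17.7%, 19.5% and 23.2% in the same classes. Among all named genes 3.85% were detected on the Dnmt1 shRNA array alone and 0.705% on the empty-vector array alone. The lowest measurable signals of these arrays were 25.1 and 37.8 units. How many of the newly detected genes lie near that limit was not tested. Genes at least 30-fold higher numbered 4, 5, 0 and 1. These shares describe 1 pair of arrays.

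**Figure D4:**
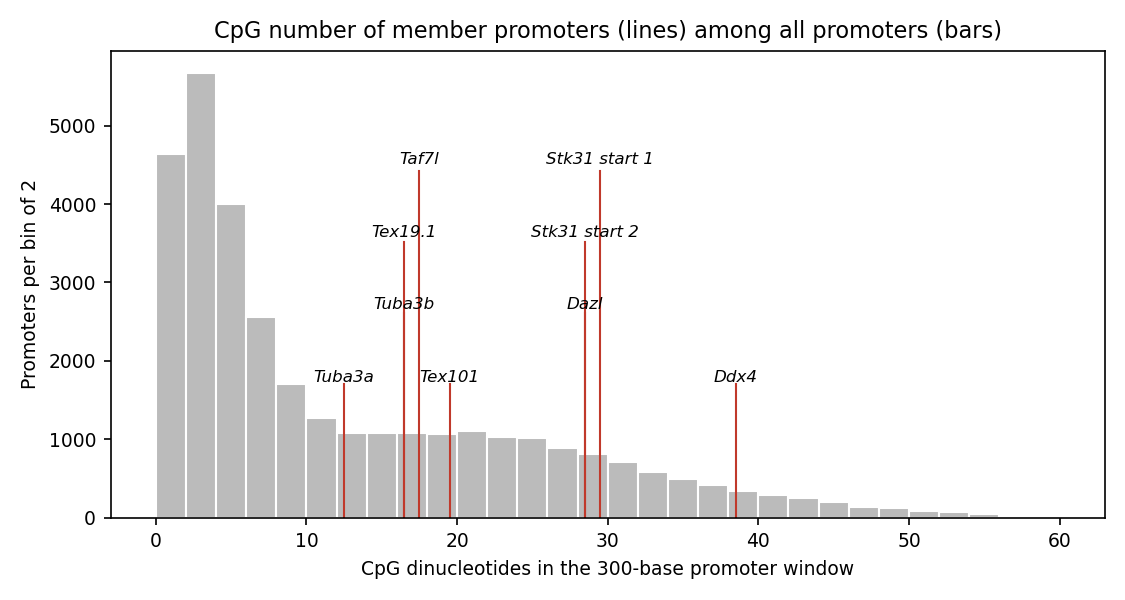
Number of CpG dinucleotides in 300-base promoter windows: bars are all 32851 promoters in bins of 2, lines are the 9 windows of the 8 members with a sequence. Tuba3a, Tuba3b, Tex19.1, Taf7l and Tex101 hold 12 to 19 CpGs, and Stk31, Dazl and Ddx4 hold 28 to 38.

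The promoters were searched on both strands for TCCCGC, a core of the sites of the repressor E2F6, and for CACGTG, the E-box read by the partners MGA and MAX. TCCCGC was found once each in Tuba3a, Tuba3b, Tex19.1 and Ddx4, and 20.0% of all promoters hold it. CACGTG was found in Taf7l, Ddx4 and both starts of Stk31, and 7.15% of all promoters hold it. CCAAT, added after the sequences were seen, was found in 5 of the 8 genes, with 3 copies in Tuba3a, 2 in Tuba3b, 4 in Tex101, 2 in Ddx4 and 1 in Dazl. Of all promoters 37.4% hold it and 11.7% hold it at least 2 times. The motifs do not overlap one another in these windows, and a match is a run of letters, not a shown binding site. In a global alignment the Tuba3a and Tuba3b windows were identical at 211 of 263 aligned letters (80.2%), so their motif matches are not independent counts. The longest run that they share has 33 letters, from -142 to -110 in Tuba3a and from -129 to -97 in Tuba3b counted from the start site, and holds the TCCCGC, in capitals here.
Shared run: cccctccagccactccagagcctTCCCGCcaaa

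Regulators of germline promoters were measured on the same arrays. Of 19 genes for repressors of germline promoters (among them the E2F6, MGA and PCGF6 complex, H3K9 methyltransferases and DNA methyltransferases) 18 were tested in each comparison. In Dnmt1 shRNA over empty vector none passed 2-fold upward, Dnmt1 itself was the 1 lower gene, and the list's median on the log2 scale was -0.12. Among all genes tested 7.86% were higher and 1.83% lower. E2f6 stood at -0.13, Mga at 0.06, Uhrf1, the partner that brings DNMT1 to newly copied DNA, at -0.24 and Dnmt3a at 0.21. For ATM vector over empty vector, Pcgf6 was 2.23-fold higher, 0 were lower and the median was -0.22, against 8.68% and 8.08% of all genes.

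The genes that flank the members were described next. The nearest 3 genes with a named probe on either side, 60 in all, gave 43 tested genes in Dnmt1 shRNA over empty vector, of which 4 were 2-fold or more higher and none lower, against 7.86% and 1.83% of all genes tested, around a median of 0.06 on the log2 scale. They were Tex19.2 beside Tex19.1, Phldb3 (2.26-fold) near Tex101, Gdpd2 (3.12-fold) near Tex11 and Tmem35a (2.65-fold) near Taf7l. The 4 tested neighbours of Tuba3a lay between -0.16 and 0.34 on the log2 scale and the 5 of Tuba3b between -0.17 and 0.55. In the array labelled ATM vector over empty vector 4 of 43 flanking genes were higher and 8 lower, against 8.68% and 8.08% of all genes tested. Ltbr, Scnn1a and Tnfrsf1a, the 3 genes on one side of Tuba3a, were 2.02-fold, at least 6.04-fold and 3.13-fold lower there, and E130112N10Rik on its other side was at least 3.30-fold lower. Gdpd2 was at least 6.71-fold, Rftn1 at least 4.26-fold, Tmem35a 3.86-fold and Daam2 2.31-fold lower, and Phldb3 was 6.39-fold, Slc7a3 3.69-fold, Btk at least 3.54-fold and Fam221a 2.79-fold higher.

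Other germline genes known to be silenced by methylation were counted the same way. Of 28 on the array, 17 were well above background on the Dnmt1 shRNA array, 5 on the array labelled ATM vector and 6 on the empty-vector array. The shares over all named genes were 68.1%, 63.3% and 63.7%. Of the 17 tested in Dnmt1 shRNA over empty vector 12 passed 2-fold upward, 8 of them by bound, and none downward. Among all genes tested 7.86% passed it upward (4.94% by bound) and 1.83% downward (1.49% by bound). The log2 ratios of the 17 had a median of 2.93 as measured and 0.87 by bound. Stag3, a meiotic cohesin subunit, was at least 14.0-fold, Fkbp6, a piRNA-pathway chaperone, at least 4.45-fold, and Syce1, a synaptonemal complex protein, at least 3.92-fold higher. Gtsf1, a piRNA cofactor, was measured on both arrays and was 48.5-fold higher. Of the 6 genes detected on the empty-vector array it alone passed 2-fold. For ATM vector over empty vector 0 of 6 were higher and 2 lower (1 with bounds, Zcwpw1 at 3.57-fold), with a median of -0.26. Among all genes 8.68% were higher there and 8.08% lower (7.42% and 6.67% by bound). This list was written with results of these arrays known, so its counts and medians are a description and carry no test.

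**Figure D5:**
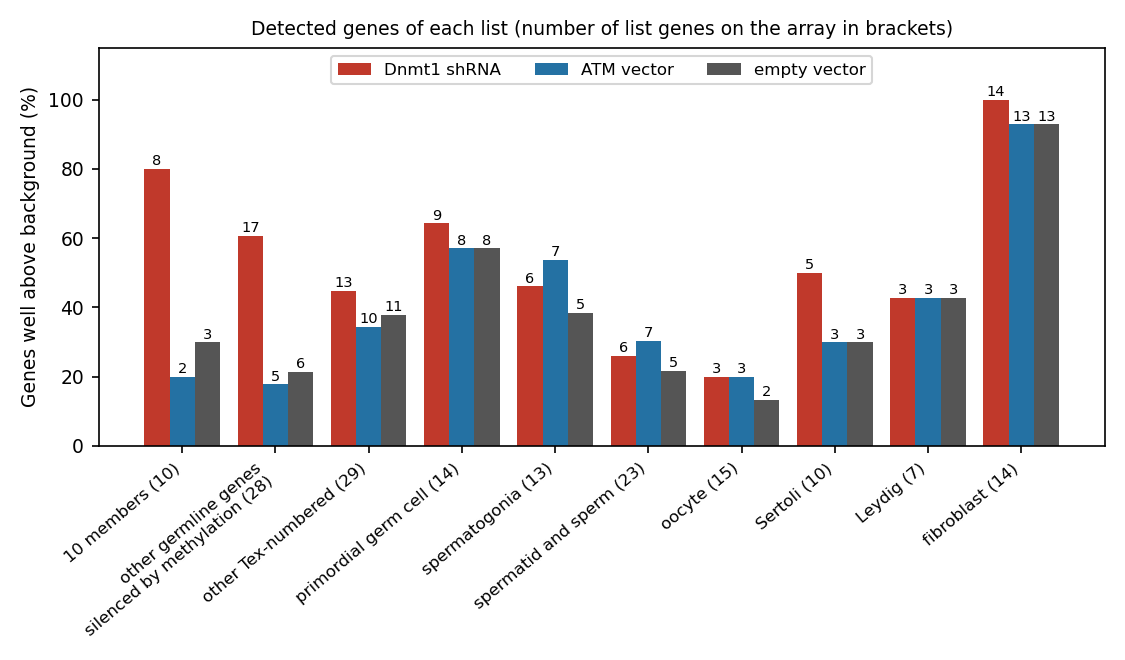
Share of the genes of each list that were well above background on the Dnmt1 shRNA, ATM vector and empty-vector arrays, with the number of genes on each bar and the list size on the array in brackets. Of the 10 members 8, 2 and 3 were detected, of the other methylation-silenced germline genes 17, 5 and 6 of 28, and of spermatid and sperm genes 6, 7 and 5 of 23.

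Markers of germ-cell stages and of testis somatic cells were set beside these values. For comparison, 68.1%, 63.3% and 63.7% of all named genes were detected on the Dnmt1 shRNA, ATM vector and empty-vector arrays. In Dnmt1 shRNA over empty vector 7.86% of all genes tested were higher (4.94% by bound) and 1.83% lower (1.49% by bound). Of 14 primordial germ cell genes 9, 8 and 8 were detected on the Dnmt1 shRNA, ATM vector and empty-vector arrays, and their summed signal was 3289, 2613 and 2657 units; Dnd1 (2.39-fold) and Nanos1 (2.15-fold) were the 2 of 9 tested that passed 2-fold upward in Dnmt1 shRNA over empty vector, none passed it downward, the median was 0.14 (log2), and Nanos2, Dppa3, Prdm14, Tfap2c and Pou5f1 were dim on all 3. Nanos1, Nanos3, Prdm1, Dnd1, Sall4, Lin28a and Nanog were measurable on all 3, with 872, 867 and 889 units for Nanos3 and 253, 466.5 and 320.3 units for Nanog in the same order of arrays. Of 13 spermatogonial genes 6, 7 and 5 were detected, 1 of 6 tested was higher (Sohlh2, 2.32-fold) and 0 lower, with a median of 0.17. Of 23 spermatid and sperm genes 6, 7 and 5 were detected with a summed signal of 972, 1408 and 1114 units, 0 of 7 tested were higher and 1, Akap4, was lower (bound 1.49-fold), with a median of 0.07. On all 3 arrays 15 of the 23 were dim, among them Tnp2, Acrv1, Izumo1 and Ldhc, and Prm1, Tnp1, Acr and Fscn3 were measurable, Prm1, a protamine, at 649, 1012 and 833 units. Of 15 oocyte genes 3, 3 and 2 were detected, and 1 of 3 tested was higher, Bmp15 at least 3.11-fold, with a median of 0.47.

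The marker lists of other cell types were read in the same way, beside the same shares of all genes. Of 10 Sertoli cell genes 5, 3 and 3 were detected on the Dnmt1 shRNA, ATM vector and empty-vector arrays. As measured, 2 of 5 tested were at least 2-fold higher (median 0.46), Wt1 and Dhh. By bound only 1 was, with Wt1 at least 4.95-fold and Dhh at least 1.56-fold higher. Amh, Gata1, Cldn11, Shbg and Aard were dim on all 3. Of 7 Leydig cell genes 3 were detected on each array and 1, Nr5a1, was 2.14-fold higher (median -0.23). Of 9 epithelial markers 6, 4 and 4 were detected with summed signals of 6588, 5525 and 5524 units. In Dnmt1 shRNA over empty vector 3 of 6 tested were higher (median 1.35), Krt18 at least 39.8-fold, Krt8 at least 22.01-fold and Krt14 4.24-fold, and Epcam, Cldn3 and Cldn4 were dim on all 3. Of 6 endothelial genes 3 were detected on each array and 0 of 3 tested were 2-fold different (median 0.24). Of 5 blood and macrophage genes 3, 3 and 4 were detected and 1 of 4 tested was higher, Csf1r at 2.04-fold (median 0.30). Of the 14 fibroblast markers 4 were higher and 1 lower (median 0.10), with Thy1 at least 36.2-fold, Postn 3.27-fold, Lum 2.49-fold and Pdgfra 2.26-fold higher and Fap 2.16-fold lower. The part of any other cell type in the members' signals was not tested.

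The same lists were read for ATM vector over empty vector. In that comparison 8.68% of all genes tested were higher and 8.08% lower (7.42% and 6.67% by bound). Kit, a receptor of germ cells and other lineages that is in both the primordial and the spermatogonial list, was at least 6.41-fold higher, Uchl1 was 2.86-fold and Lin28b at least 2.85-fold higher. These were the 3 higher of 7 tested spermatogonial genes, with 0 lower, and Kit was the 1 higher of 9 tested primordial genes, with 1 lower as measured and 0 by bound. Of 14 fibroblast markers 2 were higher, Postn at 7.53-fold and S100a4 at 3.38-fold, and 3 lower, Fap at least 23.8-fold, Lum 9.23-fold and Dcn 2.15-fold. Of 4 tested epithelial markers Krt14 was 63.1-fold higher and Krt19 5.41-fold lower. Of 8 tested spermatid genes 1 was higher, Smcp (bound 1.45-fold), and of 3 tested oocyte genes 1, Zp3 (bound 1.57-fold), with 0 lower in both lists. No tested Sertoli, Leydig or endothelial gene was 2-fold different, and of 4 tested blood genes Cd14 was 2.07-fold lower and 0 were higher. The median log2 ratio was 0.10 for primordial, 0.11 for spermatogonial, 0.19 for spermatid, 0.79 for oocyte, 0.25 for Sertoli, 0.34 for Leydig, 0.31 for epithelial, 0.60 for endothelial, -0.50 for blood and 0.20 for fibroblast genes. It was 0.42 for 23 housekeeping genes, 0 of which were 2-fold different, and -0.07 for these in Dnmt1 shRNA over empty vector, again with 0 different.

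The genes whose pattern over the 3 arrays lay nearest the members' were sought by Euclidean distance between log2 signals centred on each gene's mean, to the median pattern of the 8 members detected on at least 1 array. The 8 nearest were Csta2, Nxf3, Xlr4a, Trf, Gm10845, Tas2r113, Cox7b2 and Serpinb6b. Csta2, Nxf3, Xlr4a, Trf and Cox7b2 were dim on the ATM vector and empty-vector arrays, as most members were, and dim signals have no order. The nearness of these 5 thus rests on dim values and on their level on the Dnmt1 shRNA array, 149 to 277 units. As measured, the log2 ratios of the 8 genes in Dnmt1 shRNA over empty vector were 4.28 to 4.69. They lay between those of Tex101 (6.25) and Tex11 (3.00), a range that holds no member, so the 8 resemble the median and no single member. Gm10845, Tas2r113 and Serpinb6b were measured on all 3 arrays and were 20.9-fold, 19.5-fold and 25.7-fold higher in Dnmt1 shRNA over empty vector. No order among the 8 is read from these distances.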

How the data were processed

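Scanner output of 3 arrays was used, with groups taken from the transfection label. The submitters' processing notes name the Agilent Feature Extraction software, version 10.7.3.1. In the files that the authors deposited, the processed signal is an intensity. It stays above 0 where the background-subtracted signal beside it is negative, so dim values have no order; how the software set them is not given in the sources used here. The deposited series matrix held the same intensity values within 0.495%. Control spots and 235, 167 and 228 outlier spots (Dnmt1 shRNA, ATM vector, empty vector) were left out; no spot was saturated. log2 signals were averaged per probe and the 75th percentile of each array subtracted. A probe was tested where well above background on at least 1 of 2 arrays, so 1 that enters through a single array is mostly higher there. A gene's ratio is the mean over such probes, and called means at least 2-fold. A bound replaces a dim signal by the higher of it and the lowest signal well above background. Of 39429 probes 26412 were named through RefSeq accessions (GRCm38.p6 table), 0 had several symbols and 13017 none. The array was designed on mm9, so coordinates are given only for RefSeq promoters.

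The members and gene lists were chosen with earlier results of these data known. Named genes are all members, Dnmt1, relatives and flanking genes at least 2-fold different, of the up to 4 genes per list and comparison with the largest difference by bound those at least 2-fold different, and the 8 nearest patterns; Atm, and list members given as examples or as dim on all arrays, were named outside that rule, after their values were seen. The planned normexp alternative used the median spot signal, since the files used hold no mean signal. The ratio functions were tested on simulated data. Python 3.11.15, numpy 2.4.6, pandas 2.3.3, R 4.3.3 and limma 3.58.1 were used. No p-value is given with 1 array per group.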

Additional observations from a re-analysis of the deposited data

How the results depend on the processing

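Alternatives were normexp (offset 50, on the median signal, since the files hold no mean signal), quantile normalization, subtraction of each array's median, no filter on dim probes, probes well above background on all 3 arrays, dim sides at their bound, and the series matrix values. Over these, Dnmt1 shRNA over empty vector gave log2 ratios of 6.13 to 9.11 for Tuba3a, 5.88 to 6.82 for Tuba3b, 4.70 to 8.12 for Tex19.1, 4.16 to 6.25 for Tex101, 0.97 to 3.00 for Tex11, 0.51 to 2.71 for Stk31, -0.22 to 0.13 for Tex15 and -0.39 to -0.15 for Taf7l, and ATM vector over empty vector gave -4.21 to -1.72 for Tex15. With probes well above background on all 3 arrays only Tuba3b and Taf7l are left by construction, so 1 member was at least 2-fold higher in Dnmt1 shRNA over empty vector, 0 lower in ATM vector over empty vector and 1 lower in ATM vector over Dnmt1 shRNA. The median of the 4 germ-cell identity genes, 1.28 in Dnmt1 shRNA over empty vector, was -0.15 with that filter and -0.11 with no filter, and that in ATM vector over Dnmt1 shRNA, -1.28, was 0.24 and 0.20. The epithelial median was -0.0038 and 0.22 with no filter in these comparisons. Other list medians changed sign too. In Dnmt1 shRNA over empty vector those of spermatid and other Tex-numbered genes did so in 4 of 8 settings, and primordial in 3. Oocyte (lowest -0.41) and spermatogonial medians did in 2, and fibroblast, endothelial and housekeeping in 1. In ATM vector over empty vector methylation-silenced and spermatogonial medians did in 2, and Leydig, primordial, fibroblast and TFIID in 1. No direction is read from these medians. The filter decides which genes enter: the reported identity medians rest on 2 tested genes. Genes at least 2-fold higher in Dnmt1 shRNA over empty vector numbered 1083 as reported, 453 with normexp and 362 with probes on all 3 arrays, and those lower 252, 64 and 60; the cause for normexp was not tested. With array medians the median of all genes was -0.25 in Dnmt1 shRNA over empty vector, higher genes made up 71.2% of calls in place of 81.1%, and no filter gave 69.4%; in ATM vector over Dnmt1 shRNA array medians gave 49.1% in place of 36.9%. A common detection level left 8, 2 and 3 members detected.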
